A study of Homo sapiens with 9 samples.

Results

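The miR-29 family was examined through the 4 rows of the deposited miRNA count table that its members name, hsa-miR-29a-3p, hsa-miR-29a-5p, hsa-miR-29b-3p and hsa-miR-29c-3p (written below without the species prefix), of 1198 mature miRNAs listed in all. The members were taken by name and not by their values. Small RNA was sequenced from HCT116, a human colorectal carcinoma cell line, and from 2 sublines of it: HCT-Oxa-c (the Oxa subline), resistant to oxaliplatin, a platinum compound that crosslinks DNA, and HCT-FU-c (the 5-FU subline), resistant to 5-fluorouracil, a pyrimidine analogue that blocks thymidylate synthase. Each subline was selected by growing HCT116 in steadily rising concentrations of its drug, so each resistance is represented by 1 subline, and parental HCT116 was grown without that selection. Each line had 3 libraries, which the labels call biological replicates; whether they came from separate cultures is not given in the sources used here, so the p-values measure the spread between these libraries. Both comparisons with the parental line share the same 3 HCT116 libraries.

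miRNAs are cut from hairpin precursors that yield a 5p and a 3p strand, of which usually one is retained in the silencing complex and the other is degraded. Base pairing between the seed near the 5′ end of the retained strand and a transcript represses that transcript, so strands with one seed share most predicted targets. The 3p strands are the retained strands of the miR-29 family, which is known for repressing collagens, the DNA methyltransferases DNMT3A and DNMT3B and the survival factor MCL1.

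The mature sequences are shown because the 3 strands that carry most of the family's predicted targeting differ at few bases. Capitals mark the seed, bases 2 to 8 from the 5′ end, and sequences and positions are those of RefSeq on GRCh38.p14, all on the minus strand.
miR-29a-3p, chr7:130876748-130876769: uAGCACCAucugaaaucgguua
miR-29b-3p, chr7:130877467-130877489 and chr1:207802450-207802472: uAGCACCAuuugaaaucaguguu
miR-29c-3p, chr1:207801865-207801886: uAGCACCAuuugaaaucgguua
miR-29a-5p, chr7:130876786-130876807: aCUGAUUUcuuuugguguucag
The seed AGCACCA was carried by 3 of 2370 human mature miRNAs in RefSeq, or 0.127%, and these were miR-29a-3p, miR-29b-3p and miR-29c-3p. Counted from the 5′ end, miR-29a-3p and miR-29c-3p differed by C10U alone, and miR-29c-3p and miR-29b-3p by G18A, U21G and A22U with 1 further base at the 3′ end of miR-29b-3p. The last 6 bases of miR-29b-3p, AGUGUU, are known as a signal for import of this strand into the nucleus. Searched in the orientation shown, they occurred anywhere in 13 of the 2370 mature miRNAs, or 0.549%. At the 3′ end they occurred in 2 of the 2370, or 0.0844%.

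The hairpins are shown because they place the strands at the 2 loci, and capitals mark the mature 5p and 3p strands.
MIR29A, chr7:130876747-130876810: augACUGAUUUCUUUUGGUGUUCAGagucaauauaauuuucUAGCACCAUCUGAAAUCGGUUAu
MIR29B1, chr7:130877459-130877539: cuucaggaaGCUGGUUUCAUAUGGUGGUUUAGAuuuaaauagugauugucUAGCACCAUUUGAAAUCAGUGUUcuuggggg
MIR29C, chr1:207801852-207801939: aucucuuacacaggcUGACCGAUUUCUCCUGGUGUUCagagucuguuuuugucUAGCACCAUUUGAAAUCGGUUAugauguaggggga
MIR29B2, chr1:207802443-207802523: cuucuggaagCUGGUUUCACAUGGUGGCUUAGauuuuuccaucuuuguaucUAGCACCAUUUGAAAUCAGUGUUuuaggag
MIR29A and MIR29B1 lie 648 bases apart on chromosome 7, and MIR29C and MIR29B2 lie 503 bases apart on chromosome 1. In GENCODE 29 the chromosome 7 pair lies in introns of the noncoding gene AC016831.6, with all 81 bases of MIR29B1 and 2 bases of MIR29A inside exon 4 of LINC-PINT-202, and the chromosome 1 pair lies within exon 5 of MIR29B2CHG-203, a noncoding host transcript. The mature miR-29b-3p is identical from both loci, so its counts cannot be divided between them. A read of miR-29a-3p with its base 10 misread equals miR-29c-3p, and the mismatches allowed in the authors' counting are not given in the sources used here, so the part of such reads in the miR-29c-3p counts was not tested.

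Total counts ran from 856383 to 2207538 per library, the third replicate was the shallowest of each line, and miR-21-5p took 40.0% to 57.1% of the counts. Levels are given as CPM, read counts scaled to the library size by TMM, and 3 counts corresponded to 1.34 to 4.01 CPM. All 4 members passed the filter on low counts, as did 367 of the 1198 miRNAs. The replicate 3 libraries of all 3 lines stood apart from the others: they also held 70 to 246 counts of miR-451a, a miRNA of red blood cells, and 20 to 45 of miR-122-5p, a miRNA of liver, against 0 to 2 and 0 to 7 counts in replicates 1 and 2. Both were picked after their values were seen. In these bulk libraries a lower level per cell and fewer cells with a strand cannot be told apart.

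The family was dominated by miR-29a-3p in every library. Its level was 11152, 12326 and 4697 CPM in replicates 1, 2 and 3 of HCT116, or 9391 ± 4108 (SD, n = 3). In the 5-FU subline it was 12975, 13088 and 5850 CPM, or 10638 ± 4147 (SD, n = 3). In the Oxa subline it was 12065, 11737 and 5600 CPM, or 9801 ± 3641 (SD, n = 3). The 3 lines overlapped, and in each of them replicate 3 was low. It ranked between 9 and 12 by count among all miRNAs in replicates 1 and 2 and between 26 and 28 in replicate 3.

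The other strands with the same seed were far less abundant and less spread. miR-29b-3p reached 119, 121 and 102 CPM in HCT116, 127, 155 and 124 CPM in the 5-FU subline, and 146, 120 and 142.7 CPM in the Oxa subline. All 3 HCT-FU-c libraries lay above all 3 of HCT116, a separation in this direction that 4.36% of the 367 tested miRNAs showed, whereas the HCT-Oxa-c libraries overlapped those of HCT116. miR-29c-3p, the strand made only on chromosome 1, stood at 47.5, 46.4 and 57.5 CPM in HCT116, 60.5, 48.4 and 56.0 CPM in the 5-FU subline, and 56.1, 61.3 and 61.6 CPM in the Oxa subline. Its levels overlapped between the lines.

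The passenger strand miR-29a-5p was measured at 11 to 22 counts per library. It stood at 7.47, 10.0 and 29.4 CPM in HCT116, 11.3, 8.94 and 15.5 CPM in the 5-FU subline, and 8.92, 8.05 and 22.6 CPM in the Oxa subline. Replicate 3 was the highest library of each line, opposite to the 3p strand of the same hairpin. In order of level, miR-29a-3p stood above miR-29b-3p and miR-29b-3p above miR-29c-3p without overlap over the 9 libraries. The 4 members span 22 to 23 bases, so 1 read counts 1 strand of nearly equal length. Whether different strands are captured equally in the libraries was not tested, so the order is one of reads.

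**Figure D1:**
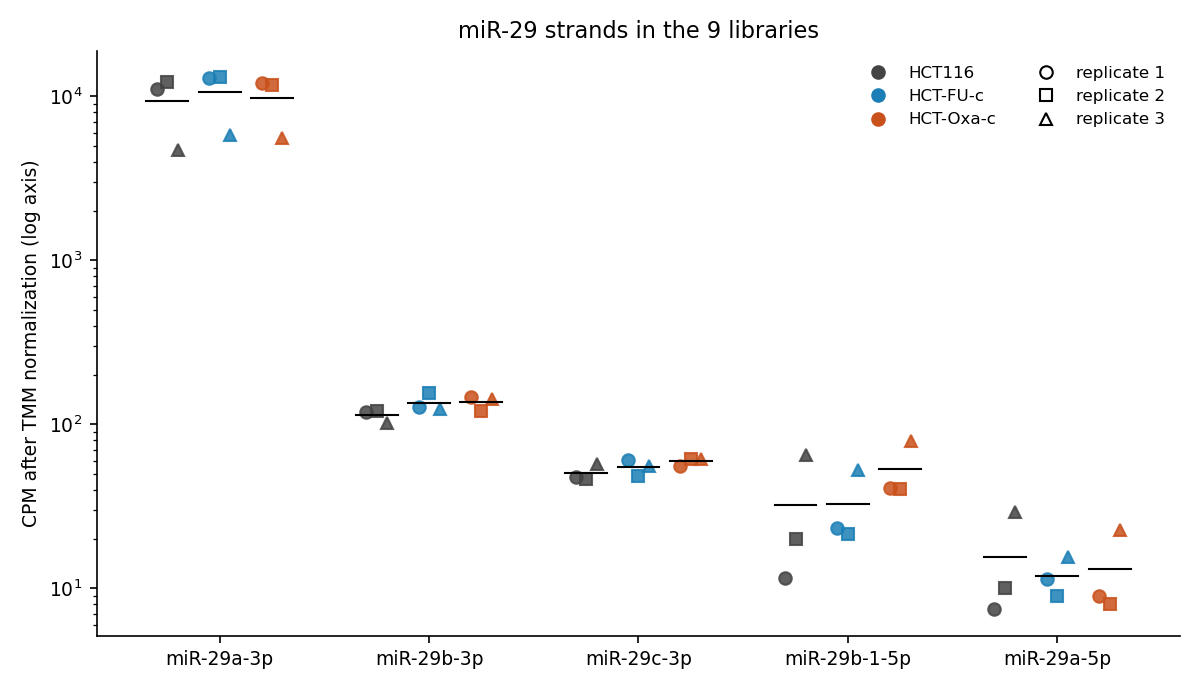
CPM on a log axis for 5 miR-29 strands, with 1 point per library, colours for the lines, shapes for the replicate numbers and a black bar for the mean of each line. The replicate 3 triangles are the lowest points of miR-29a-3p and the highest of miR-29a-5p and miR-29b-1-5p in all 3 lines.

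The deposited counts addressed whether acquired resistance went with a changed miR-29 level. None of the 4 members was called in either subline against HCT116 when quasi-likelihood F tests of edgeR were adjusted by Benjamini-Hochberg over the 367 tested miRNAs, at a threshold of 0.05. In HCT-Oxa-c, where 2.45% of tested miRNAs were called, the members' adjusted p ran from 0.875 to 1.00 by edgeR. In HCT-FU-c edgeR called 0 miRNAs (0%), with 15 (4.09%) at an unadjusted p under 0.05 and 4 by DESeq2, and the members' adjusted p was 0.997. Between the sublines 4.36% were called, and no member was among them. With the replicate number as a block the shares called rose to 14.7%, 5.45% and 26.4%, and still none of the 4 members passed.

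The fold changes of the members were small beside their intervals. In HCT-Oxa-c against HCT116, 3 of the 4 had a log2 fold change above 0, with a median of 0.15 beside -0.01 over all tested miRNAs. In HCT-FU-c it was again 3 of 4, with a median of 0.15 beside 0.02. miR-29b-3p had log2 fold changes of 0.26 ± 0.22 (SE, n = 3 libraries a line) in the Oxa subline and 0.25 ± 0.22 in the 5-FU subline, with 95% intervals of -0.24 to 0.76 and -0.25 to 0.75. For miR-29c-3p they were 0.24 ± 0.23, interval -0.27 to 0.76, and 0.12 ± 0.23, interval -0.39 to 0.64. The passenger miR-29a-5p had -0.23 ± 0.63 and -0.36 ± 0.63, with intervals from -1.65 to 1.18 and from -1.78 to 1.07. Between the 2 sublines the members' log2 differences, HCT-Oxa-c minus HCT-FU-c, ran from -0.12 to 0.12.

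Summing the 3 strands gave the level of the seed family. The sum was 11318, 12493 and 4856 CPM in HCT116, 13163, 13291 and 6030 CPM in the 5-FU subline, and 12267, 11919 and 5805 CPM in the Oxa subline. Means were 9555 ± 4112, 10828 ± 4156 and 9997 ± 3635 CPM (SD, n = 3 each), so the spread within a line exceeded every difference between lines. The log2 fold change against HCT116 was 0.07 in HCT-Oxa-c, a 95% interval of 0.52-fold to 2.12-fold, and 0.18 in HCT-FU-c, an interval of 0.56-fold to 2.30-fold. HCT-Oxa-c minus HCT-FU-c gave -0.12, an interval of 0.45-fold to 1.87-fold.

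Replicate 3 was the low library of all 3 lines. With the replicate number as a block, the interval of the summed family in HCT-Oxa-c against HCT116 narrowed to 0.87-fold to 1.32-fold. In HCT-FU-c the blocked interval was 0.94-fold to 1.42-fold. Within replicate numbers the log2 difference of the sum from HCT116 was 0.12, -0.07 and 0.26 in the Oxa subline. In the 5-FU subline it was 0.22, 0.09 and 0.31. The blocked adjusted p by edgeR was 0.718 and 0.506, in the same order. Without replicate 3 the sum's log2 fold change was 0.04 in the Oxa and 0.10 in the 5-FU subline, with an edgeR adjusted p of 0.921 and 0.835. No change of the summed family was called with 3 libraries a line, and an interval is not a limit of detection. The narrower intervals rest on the block by replicate number. Without it they were 0.52-fold to 2.12-fold in HCT-Oxa-c and 0.56-fold to 2.30-fold in HCT-FU-c.

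**Figure D2:**
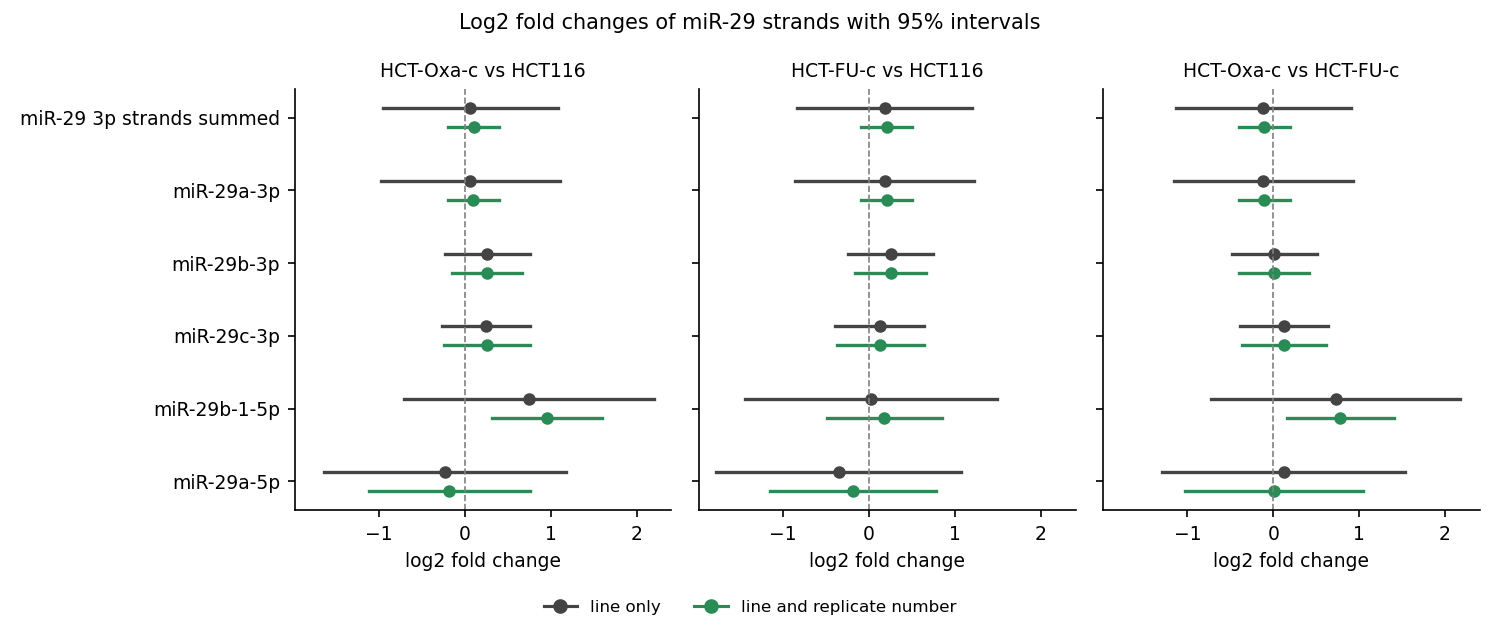
Log2 fold changes (x axis) with 95% intervals from edgeR for the summed 3p strands and 5 single strands in the 3 comparisons, without (grey) and with (green) the replicate number in the model. All intervals of the 4 members and of the sum include 0, and the green intervals of miR-29a-3p are the shorter ones.

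The 2 loci were compared through the counts of mature strands that only 1 of them makes. The parts of transcription, processing, stability, capture and misread bases in these counts were not tested. Strands specific to chromosome 1 (miR-29c-3p, miR-29c-5p and miR-29b-2-5p) gave 47 to 151 counts per library, and those specific to chromosome 7 (miR-29a-3p, miR-29a-5p and miR-29b-1-5p) gave 3585 to 26344. The chromosome 1 strands made up 0.448%, 0.426% and 1.40% of the locus-specific counts in HCT116. In the 5-FU subline they made up 0.526%, 0.387% and 0.938%, and in the Oxa subline 0.521%, 0.570% and 1.19%. The 95% Wilson interval of HCT116 replicate 1 was 0.357% to 0.562% and that of replicate 3 was 1.07% to 1.84%, which do not overlap. These intervals cover counting error only, since amplified reads without molecular identifiers are not independent molecules.

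Within the seed family the composition hardly differed between the lines. miR-29a-3p made up 98.0% ± 1.08 of the summed 3p counts in HCT116, 98.0% ± 0.872 in the 5-FU subline and 97.8% ± 1.12 in the Oxa subline (SD, n = 3 libraries a line). The share of miR-29b-3p was 1.37%, 1.40% and 1.55%, and that of miR-29c-3p 0.659%, 0.584% and 0.678%, in the same order. Over the 3 lines, two-sided exact permutation tests gave p = 0.739, 0.771 and 0.829 for the shares of miR-29a-3p, miR-29b-3p and miR-29c-3p. The log2 ratio of miR-29c-3p to miR-29a-3p averaged -7.41 ± 0.937 in HCT116, -7.50 ± 0.720 in the 5-FU subline and -7.27 ± 0.677 in the Oxa subline (SD, n = 3 a line, exact permutation p = 0.80).

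The strand balance of the MIR29A hairpin was compared in the same way. The log2 ratio of miR-29a-3p to miR-29a-5p was 10.48, 10.22 and 7.29 in HCT116, 10.11, 10.47 and 8.51 in the 5-FU subline, and 10.36, 10.47 and 7.92 in the Oxa subline. Replicates 1 and 2 held between 1107 and 1428 reads of the 3p strand for each read of the 5p strand, and replicate 3 held 156 to 364. These are ratios of reads over few 5p reads, and equal capture of the strands in the libraries was not tested. A difference between the lines did not pass the exact permutation test (p = 0.879), and over these 5 quantities the adjusted p was 0.879 for each. With the lines exchanged only within replicate numbers the 5 exact p ran from 0.25 to 0.639, and the smallest p these tests allow is 0.00357 over all libraries and 0.0278 within numbers.

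**Figure D3:**
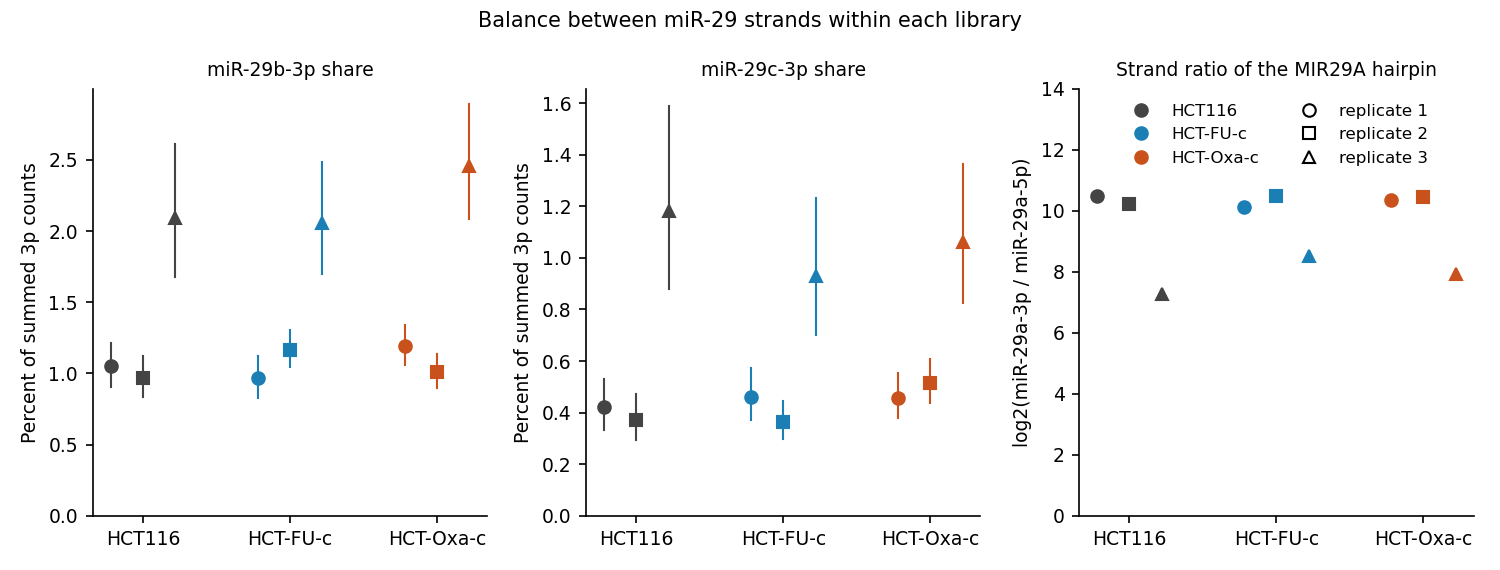
Share of miR-29b-3p and of miR-29c-3p in the summed 3p counts (percent, with 95% Wilson intervals) and the log2 ratio of miR-29a-3p to miR-29a-5p, with 1 point per library. Replicate 3 (triangles) has the highest shares and the lowest ratio in each line, while the 3 lines overlap.

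Replicate 3 of every line thus stood apart in the family. Its log2 level of miR-29a-3p minus the mean of replicates 1 and 2 was -1.32 in HCT116, -1.16 in the 5-FU subline and -1.09 in the Oxa subline, and 26.7% of tested miRNAs were likewise below both other replicates in all 3 lines. The passenger miR-29a-5p went the other way, by 1.71, 0.60 and 1.36, as did 31.3% of tested miRNAs. The strands sharing the seed of miR-29a-3p moved little, with mean shifts of -0.10 for miR-29b-3p and 0.14 for miR-29c-3p, beside a median of -0.01 and quartiles of -0.73 and 0.69 over all tested miRNAs. The part of depth and of the counts of miR-451a and miR-122-5p given above in these shifts was not tested.

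**Figure D4:**
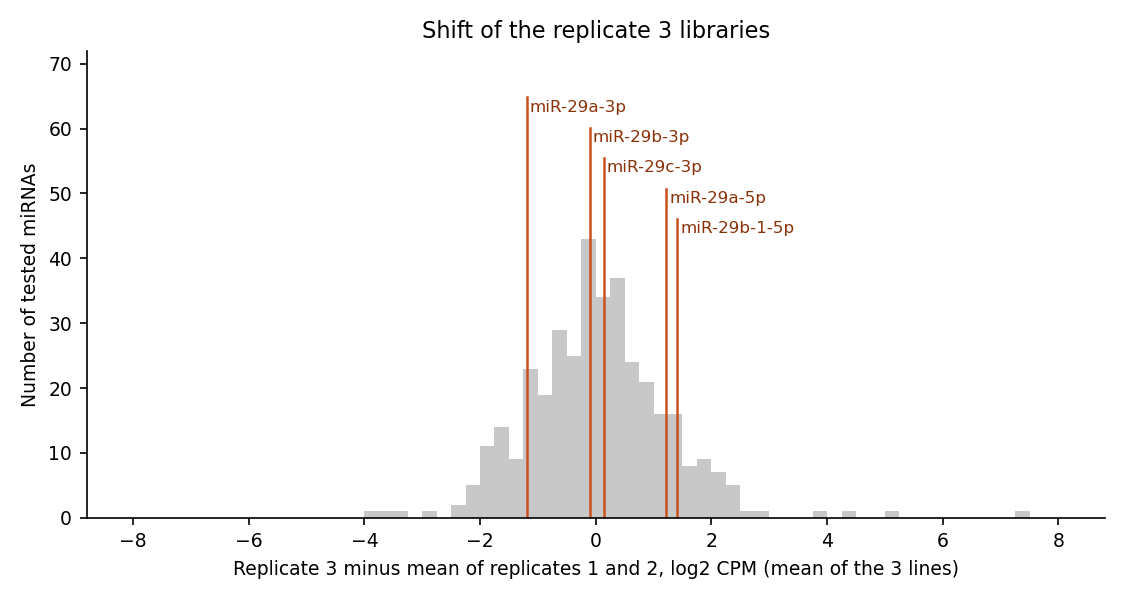
Number of tested miRNAs (y axis) by the log2 CPM of replicate 3 minus the mean of replicates 1 and 2, averaged over the 3 lines (x axis), with miR-29 strands marked by vertical lines. miR-29a-3p lies at -1.19, the other strands with its seed lie near 0, and miR-29a-5p and miR-29b-1-5p lie at 1.22 and 1.41.

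The 5p strands of the remaining hairpins show the miR-29b loci apart. miR-29b-1-5p, from chromosome 7, had 17, 28 and 49 counts in HCT116, 31, 41 and 44 in the 5-FU subline, and 78, 90 and 77 in the Oxa subline. miR-29b-2-5p, from chromosome 1, had 3, 3 and 8, then 7, 1 and 0, then 9, 8 and 6 counts, below the chromosome 7 strand in 9 of 9 libraries. miR-29c-5p reached at most 6 counts, and neither of these strands of chromosome 1 passed the filter.

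miR-29b-1-5p was the one miR-29 strand whose call depended on the block. Its level was 11.5, 20.01 and 65.5 CPM in HCT116, 23.4, 21.6 and 52.4 CPM in the 5-FU subline, and 40.9, 40.3 and 79.1 CPM in the Oxa subline. HCT-Oxa-c was the highest line within each replicate number, although the lines overlapped across numbers. The share of all tested miRNAs with such an order was not computed. Against HCT116 its log2 fold change in HCT-Oxa-c was 0.75 ± 0.64 (SE) with an edgeR adjusted p of 0.875, and leaving out a single library moved it between 0.36, when HCT116 replicate 1 was dropped, and 1.72, when it was HCT116 replicate 3. With the replicate number as a block it rose by 0.96 ± 0.31 (SE), with an edgeR adjusted p of 0.0394, in a model that called 14.7% of tested miRNAs. The differences within replicates 1, 2 and 3 were 1.78, 0.99 and 0.27, and with replicates 1 and 2 alone, an alternative added once the data had been seen, the log2 fold change was 1.38 with an edgeR adjusted p of 0.0220. In HCT-FU-c it was 0.02 without the block and 0.18 with it, neither called by edgeR (adjusted p = 0.997 and 0.818).

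Other miRNAs known for targeting DNA methyltransferases or the histone methyltransferase EZH2 were read beside the family. All 9 on the list were tested, and none was called in either subline against HCT116. Against HCT116, edgeR called 2.45% of all tested miRNAs for the Oxa subline and 0% for the 5-FU subline. The absence of calls thus does not set the list apart. Its median log2 fold change was 0.08 for the Oxa subline, beside -0.01 over all tested miRNAs. For the 5-FU subline it was 0.00, beside 0.02. Between the sublines 1 of 9 was called, beside 4.36% of all tested miRNAs. This was miR-148a-3p, a regulator of DNMT1 and DNMT3B, which stood at 5614, 6527 and 5182 CPM in the Oxa subline, 3093, 2962 and 3275 CPM in the 5-FU subline, and 4673, 4403 and 3662 CPM in HCT116. All 3 libraries of the Oxa subline lay above every library of HCT116 and of the 5-FU subline, separations shown by 8.99% and 12.3% of tested miRNAs. It was higher in the Oxa than in the 5-FU subline by 0.89 ± 0.20 (log2, SE) with an edgeR adjusted p of 0.0381, but the call was lost without any 1 library other than HCT116 replicate 3, with an edgeR adjusted p of up to 0.185. It was also lost in edgeR with scaling by total counts (adjusted p = 0.172), without the filter (adjusted p = 0.234) and with only the 6 libraries compared (adjusted p = 0.0623). The most abundant others on the list did not pass in any comparison without the block: miR-26a-5p had means of 8829 to 9359 CPM in the 3 lines, miR-26b-5p 5580 to 7684 CPM and miR-148b-3p 4376 to 4926 CPM.

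With the replicate block, 5 of the 9 miRNAs of the list were called in at least 1 comparison by edgeR, beside 29.4% of all tested miRNAs, and those outside the naming rule are given after their values were seen. In HCT-Oxa-c miR-148a-3p (0.44, adjusted p = 0.0447) and miR-152-3p (0.83, adjusted p = 0.0284) rose against HCT116, while miR-148b-3p, of the same seed family, had -0.04 (edgeR adjusted p = 0.940). miR-143-3p, a regulator of DNMT3A, fell in both the Oxa (-0.97, edgeR adjusted p = 0.00172) and the 5-FU subline (-0.96, edgeR adjusted p = 0.0113). It also stood higher in replicate 3 by 1.88 on the log2 scale, averaged over the lines, and without HCT116 replicate 3 its log2 fold change in the 5-FU subline, with no block, was -0.0015, beside -1.90 without HCT-FU-c replicate 3. Between the sublines miR-148a-3p (adjusted p = 0.000120) and miR-26b-5p (0.48, adjusted p = 0.0251) were higher in HCT-Oxa-c and miR-185-5p was lower (-0.54, adjusted p = 0.0304) by edgeR. With replicates 1 and 2 only, the call of miR-148a-3p between the sublines was kept (edgeR adjusted p = 0.000764) and the others named here were not, with edgeR adjusted p of 0.147 for miR-148a-3p against HCT116, 0.228 for miR-152-3p, 0.112 and 0.0659 for miR-143-3p in the Oxa and the 5-FU subline, 0.0510 for miR-26b-5p and 0.145 for miR-185-5p.

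The RefSeq hairpin positions used placed 10 listed miRNAs within 5 Mb of the chromosome 7 locus, and miRNAs without such a position may be missing. Of these 10, 5 were tested and none was called without the block. Of all tested miRNAs, 2.45% were called in HCT-Oxa-c against HCT116, 0% in HCT-FU-c and 4.36% between the sublines. The lack of a call thus does not set these neighbours apart. Their log2 fold changes ran from -0.76 to 0.45 in the Oxa subline and from -0.18 to 0.61 in the 5-FU subline. With the block, miR-182-5p was called higher and miR-335-5p lower in HCT-Oxa-c, and miR-335-3p higher in HCT-FU-c, in models that called 14.7% and 5.45% of tested miRNAs. Between the sublines, where the block called 26.4%, miR-182-5p was called higher and miR-335-3p and miR-335-5p lower in the Oxa subline. miR-135b-5p, with a hairpin within 5 Mb of the chromosome 1 locus, was also called lower in the Oxa subline. Around the chromosome 1 locus 3 of 4 were tested and 1 was called, beside 2.45% of tested miRNAs. This was miR-205-5p, with 69, 48 and 31 counts in HCT-Oxa-c against 2, 0 and 0 in HCT116 (edgeR adjusted p = 0.0173). Outside HCT-Oxa-c its counts stayed under the filter's minimum of 10, so it could enter the test only as a miRNA high in that line. The alternative with at least 10 counts in every library did not test it. Its call against HCT116 was lost without HCT116 replicate 2, with an edgeR adjusted p of 0.0723, and without HCT-Oxa-c replicate 1. It had 4, 7 and 0 counts in the 5-FU subline and was called between the sublines as well (edgeR adjusted p = 0.0369), beside 4.36% of tested miRNAs, a call lost with total counts, without HCT116 replicate 1, without replicate 1 or 2 of the 5-FU subline and without any 1 library of the Oxa subline (edgeR adjusted p of up to 0.143).

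The patterns closest to the summed family over the 9 libraries were those of miR-141-3p, miR-96-5p, miR-125b-5p, miR-484 and miR-30b-5p. Likeness was measured as the root mean square difference of log2 CPM, each miRNA centred on its own mean. These 5 lay at 0.19, 0.21, 0.24, 0.24 and 0.24, beside a median of 0.79 over 362 miRNAs and 0.56 for a flat line. Each was lower in replicate 3: miR-141-3p, an epithelial miRNA, averaged 847 CPM over replicates 1 and 2 and 352 CPM over replicate 3, and miR-96-5p, made within 5 Mb of MIR29A, 601 and 284 CPM. The libraries differed in depth, with replicate 3 the shallowest of each line, and which of them shared a sequencing run is not given. The likeness is thus a description.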

How the data were processed

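Total RNA was isolated with RNAzol RT, and small RNA libraries were made with the NEXTflex Small RNA-Seq v3 kit and sequenced on an Illumina MiSeq. The authors deposited raw read counts per mature miRNA, used here, beside a signal that the authors made by dividing those counts by size factors, which was left out. The submitters' processing notes name CASAVA 1.8, Bowtie 1.1.2, DESeq2 and GRCh38.p7. How multiply mapping reads, mismatches and strand were treated, and which libraries shared a sequencing run, is not given in the sources used here. The labels give RPMI as the medium and the study's methods give DMEM.

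The counts were fitted with edgeR 4.0.16 (R 4.3.3), with TMM scaling, filterByExpr (minimum count 10, minimum total 15), line as factor over all 9 libraries, and adjustment over 367 miRNAs. The summed 3p strands replaced their 3 rows in a fit of 365 rows. Replicate numbers were taken to pair libraries in the block. Deviations from the line means correlated by 0.366 to 0.733 in all 9 pairs of the same number, against -0.658 to 0.598 in 18 pairs of different numbers. Every negative value, from -0.658 to -0.461, joined a replicate 3 library to one of replicate 1 or 2. Among replicates 1 and 2, pairs of different numbers correlated by 0.375 to 0.598 and pairs of the same number by 0.366 to 0.627. The correlations thus set replicate 3 apart, and they do not show that replicates 1 and 2 pair by number. The biological coefficient of variation was 0.458 without and 0.174 with the replicate block. No libraries of a line agreed within sampling noise (chi-square per degree of freedom 11.3 to 459). Shares and ratios (0.5 added to each count in ratios) were compared by exact permutation tests over 1680 assignments, or 216 within replicate numbers. Scripts were tested on simulated data. Alternatives were other scalings, DESeq2 1.42.0, other filters, the 6 libraries compared, the replicate block, each library left out, and replicates 1 and 2 only, the last added after seeing the data.

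The members and lists were chosen with earlier results of these data known. The text names the 4 members, the other strands of their hairpins, a list of 9 miRNAs known for targeting DNA methyltransferases or EZH2 (values for those called, then the most abundant, up to 4), tested neighbours within 5 Mb, and the 5 miRNAs nearest in pattern.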

Additional observations from a re-analysis of the deposited data

Results flagged for a closer look

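miR-148a-3p departed from HCT116 in opposite directions in the 2 sublines. Every HCT-Oxa-c library lay above and every HCT-FU-c library below all 3 HCT116 libraries, separations shown by 8.99% and 4.36% of the 367 tested miRNAs. The difference between the sublines was 0.893 on the log2 scale, tested by edgeR with an adjusted p of 0.0381, a call lost in 11 of 18 alternatives, with an edgeR adjusted p of up to 0.234. Each subline's own difference from HCT116, 0.44 and -0.45, did not pass (edgeR adjusted p = 0.487 and 0.913), and with the replicate block the first did (edgeR adjusted p = 0.0447) and the second did not (edgeR adjusted p = 0.0901).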

How the results depend on the processing

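No alternative called any of the 4 members or the summed 3p strands in any comparison. miR-29b-3p and miR-29c-3p stayed above 0 against HCT116 in both sublines under all 18 alternatives, and the other members' directions changed as follows. The number of miRNAs called for the Oxa subline against HCT116, the 5-FU subline against HCT116 and the sublines against each other went from 9, 0 and 16 to 23, 4 and 43 with DESeq2, to 54, 20 and 97 with the replicate block, to 43, 13 and 67 with replicates 1 and 2 only, to 4, 1 and 9 with at least 10 counts in every library, and to 16 and 1 in the first 2 without a filter. Leaving out 1 library gave 4 to 12, 0 to 0 and 6 to 23. The log2 fold change of the summed strands then ran from -0.27 to 0.41, from -0.13 to 0.43 and from -0.28 to 0.22, and that of miR-29a-3p from -0.28 to 0.41, from -0.14 to 0.43 and from -0.28 to 0.23. For miR-29a-5p it ran from -0.76 to 0.51, from -0.71 to 0.42 and from -0.40 to 0.42, for miR-29b-1-5p from 0.36 to 1.72 in the Oxa and from -0.50 to 1.02 in the 5-FU subline against HCT116, and for miR-29b-3p between the sublines from -0.018 to 0.11. HCT116 replicate 3 gave the reversal of the sum in both comparisons with HCT116 (-0.27 and -0.13), HCT-Oxa-c replicates 1 and 2 also in the first (-0.06 and -0.05), and HCT-FU-c replicate 1 also in the second (-0.02). HCT-Oxa-c minus HCT116 ran, with 1 library left out, from -0.83 to 0.44 percentage points for the share of miR-29a-3p, from -0.27 to 0.55 for miR-29b-3p and from -0.17 to 0.28 for miR-29c-3p, from -0.76 to 1.09 for the log2 ratio of miR-29a-3p to miR-29a-5p, and from -0.25 to 0.68 for that of miR-29c-3p to miR-29a-3p. Scaling by total counts moved the median of all miRNAs by 0.17 in HCT-FU-c against HCT116 and by -0.19 between the sublines, where it turned miR-29a-5p to -0.053, miR-29b-3p to -0.19 and miR-29c-3p to -0.049. With replicates 1 and 2 only, miR-29a-5p turned to 0.15 in HCT-FU-c and to -0.17 between the sublines, and miR-29b-3p to -0.018 there. With only the 6 libraries compared, miR-29b-1-5p turned to -0.0017 in HCT-FU-c. The causes were not tested. The replicate block changed no call of the 4 members, and it added that of miR-29b-1-5p in HCT-Oxa-c (0.96).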
